A study of Mus musculus with 15 samples.

Results

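The genes described are 9 complement components and regulators of the mouse kidney, out of 23393 gene symbols measured: C1qa, C1qb, C1qc, C4b, C2, C3, Cfb, Cfi and C3ar1. They were taken by symbol from 3 comparisons of kidneys without the nuclear receptor ERRγ, encoded by Esrrg, with control kidneys, and each of the 9 is present in all 3. Knockout mice carried ERRg fl/fl;Sim1-Cre and controls ERRg fl/fl alone, so both genotypes share the floxed alleles and the C57BL/6 strain. By the labels there were 3 knockout and 3 control males at 3 months, 2 knockout and 2 control females at 3 weeks, and 3 knockout and 2 control males at 3 weeks, which makes 15 libraries of polyadenylated kidney RNA. One label field calls the 3-month knockout libraries female, while their titles and sex field say male. Sim1-Cre deletes only in cells in which the Sim1 sequences drive Cre, and the RNA came from kidneys, not from sorted cells.

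Complement is a cascade of plasma proteins that marks targets and calls in inflammatory cells. The classical pathway starts when C1q binds antibody or damaged cells and activates proteases that cut C4 and C2. The alternative pathway builds on C3b and factor B. Both make enzymes that cut C3, from which a fragment, C3a, signals through a receptor on leukocytes. The liver makes most circulating complement, but macrophages are known as the main makers of C1q and kidney tubule cells can make C3.

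The values are those of the authors' deposited tables, one for each comparison: a normalised count averaged over both genotypes, the log2 fold change and its standard error (SE), and an adjusted p-value. No value for a single library was used here. Replicate spread therefore enters only through the SE. Recurring steps among the lowest means fitted 2 libraries on the positive and 3 on the negative side of the ratio at 3 months, and 2 and 2 in females and in males at 3 weeks, which is 1 library fewer than labelled in both male tables. The summed means, in units of 1000000 counts, were 18.8, 33.9 and 47.5 in 3-month males, 3-week females and 3-week males. Which genotype is the numerator is not stated in the headers. It is read here as knockout over control, because the study ties ERRγ to reabsorption and most tubule markers have negative values. Among 7 tubule and glomerulus markers 3 of 5 tested in females and 6 of 6 tested in 3-week males had a called negative value, which chose this reading and supports nothing. The list summed to 11204, 10241 and 10007 per 1000000 counts in 3-month males, 3-week females and 3-week males, and no marker is listed at 0. At 3 months 6 of the 7 have the status Outlier, among them Slc34a1, the phosphate transporter of the proximal tubule, at -2.51 ± 0.58 in the authors' deposited table. Esrrg itself has 0.82 ± 0.20 in 3-week males and 1.04 ± 0.17 in 3-week females in the authors' deposited tables, which on its face goes against the reading, and -0.87 ± 0.57 without a p-value at 3 months. The position of the deleted exon was not known here, so Esrrg checks neither the reading nor the labels. With the ratio turned, every higher and lower below would change places. The opposition between Cfb and the 7 members with the other sign in all 3 comparisons would stay.

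Most of the 9 members had more RNA in knockout kidneys, and Cfb, factor B, had less in every comparison. A positive fold change in all 3 of the authors' deposited tables was found for 7 members, and a negative one in all 3 for 1, Cfb. At 3 months 6 of 8 tested members rose and 2 fell in the authors' deposited table at an adjusted p under 0.05, while 29.8% of all tested genes rose and 27.8% fell (57.5% in either direction). In 3-week females 4 of 8 rose and 1 fell, where 8.29% and 10.4% of all tested genes did (18.7% in either direction). In 3-week males 5 of 7 rose and 1 fell, where 8.81% and 8.52% of all tested genes did (17.3% in either direction). The median log2 fold change of the tested members in the authors' deposited tables was 3.87, 0.67 and 1.31 in 3-month males, 3-week females and 3-week males, against 0.01, 0.01 and -0.01 for all tested genes. All 27 pairs of a member and a table passed the filter on low means, and 4 of them have no p-value because the authors gave the gene the status Outlier. The libraries are bulk RNA, so more cells of a type and more RNA per cell cannot be told apart.

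**Figure D1:**
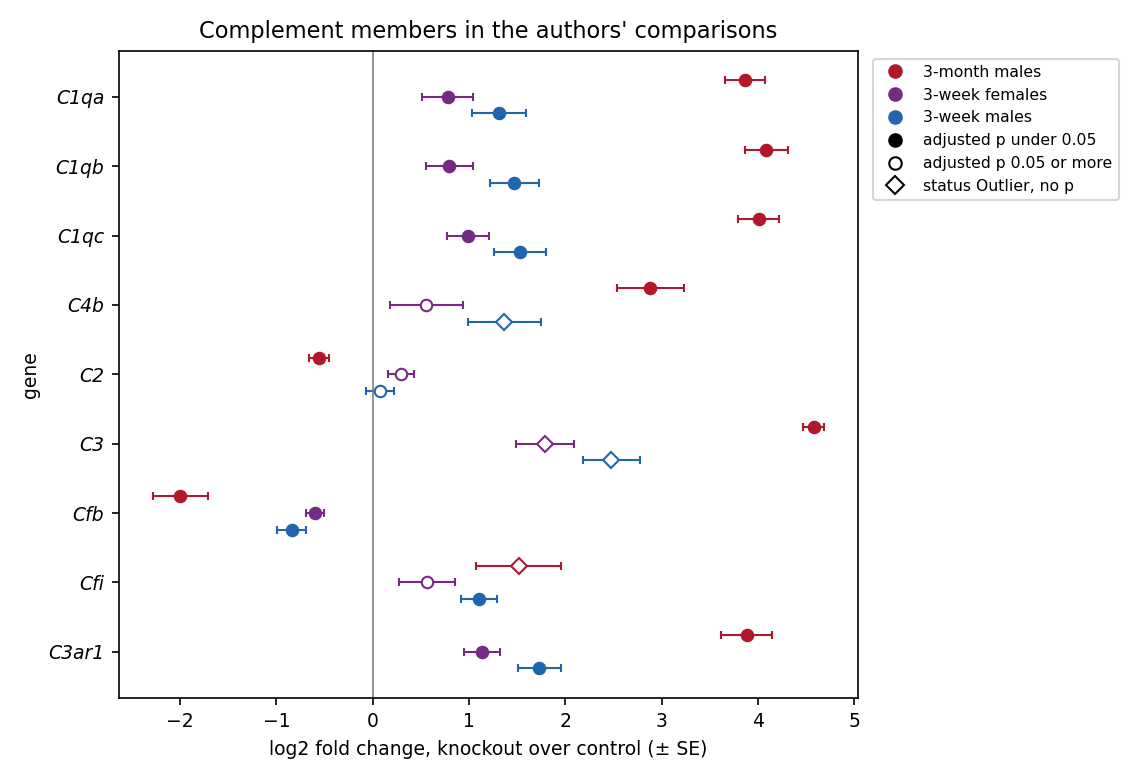
Log2 fold change, knockout over control, with its SE for each of the 9 members (rows) in 3-month males, 3-week females and 3-week males, from the authors' deposited tables. Filled circles have an adjusted p under 0.05, open circles do not, and diamonds have the status Outlier and no p; Cfb lies left of 0 in all 3 comparisons and the C1q chains, C3 and C3ar1 lie right of it.

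The 3 chains of C1q, the recognition protein of the classical pathway, rose together in every comparison. They are encoded side by side on the minus strand of chromosome 4, from C1qb at 136880129 to C1qa at 136898803 (GRCm38, which is mm10; GENCODE M21), within 18675 bases. In 3-month males the authors' deposited table gave C1qa a log2 fold change of 3.87 ± 0.21 (adjusted p = 9.48e-75), C1qb 4.09 ± 0.23 (adjusted p = 1.11e-70) and C1qc 4.01 ± 0.21 (adjusted p = 1.24e-76). These are 14.6-fold, 17.0-fold and 16.1-fold higher levels in the knockout. In 3-week females the authors' deposited table gave 0.78 ± 0.26 for C1qa (adjusted p = 0.0208), 0.80 ± 0.24 for C1qb (adjusted p = 0.00941) and 0.99 ± 0.22 for C1qc (adjusted p = 9.24e-05). In 3-week males the authors' deposited table gave 1.31 ± 0.28 for C1qa (adjusted p = 7.30e-05), 1.47 ± 0.26 for C1qb (adjusted p = 4.68e-07) and 1.53 ± 0.27 for C1qc (adjusted p = 4.26e-07). Within a comparison the 3 chains lay within 0.22, 0.21 and 0.22 of each other on the log2 scale at 3 months, in females and in 3-week males; the SE of a single chain was between 0.21 and 0.28.

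The components that C1 acts on had smaller fold changes than C1q at 3 months. C4b, on chromosome 17 from 34728380 to 34743882, encodes the C4 protein whose fragment anchors the C3-cutting enzyme. The authors' deposited tables gave it 2.88 ± 0.34 (adjusted p = 7.99e-16) at 3 months, 0.56 ± 0.38 (adjusted p = 0.334) in 3-week females and 1.37 ± 0.38 without a p-value in 3-week males. C4a, at 34809092 to 34823464 on the same chromosome, is a near-identical copy, so reads may be split between the pair. It stood at -0.65 ± 0.50, -0.08 ± 0.40 and 0.28 ± 0.39 in the authors' deposited tables (adjusted p = 0.264, 0.927 and 0.718). C2, the serine protease that joins the C4 fragment, was called only at 3 months, where the authors' deposited table gave -0.56 ± 0.10 (adjusted p = 3.16e-07). Scaling the libraries to their total counts adds 0.49 to every log2 fold change at 3 months, and C2 was then at -0.06 (adjusted p = 0.615). In 3-week females and males the authors' deposited tables gave C2 0.29 ± 0.13 (adjusted p = 0.101) and 0.08 ± 0.15 (adjusted p = 0.805).

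C3, the protein on which all pathways converge, had the highest fold change of the 9 members in each comparison. The gene lies on chromosome 17 from 57203970 to 57228136. At 3 months the authors' deposited table gave 4.58 ± 0.11, a 23.9-fold higher level, with an adjusted p listed as 0. In the authors' deposited tables it stood at 1.79 ± 0.30 in 3-week females and 2.48 ± 0.30 in 3-week males, both with the status Outlier and no p-value. Of the tested genes 99.2% had a lower fold change than C3 at 3 months, 99.5% in females and 99.7% in 3-week males. When genes with that status were kept and given a 2-sided normal p from the fold change over its SE, C3 passed in both 3-week comparisons (adjusted p = 1.32e-07 in females and 8.50e-15 in males). Without values per library, the part of a single kidney in these C3 values was not tested.

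Cfb, whose protein binds C3b and supplies the protease of the alternative pathway, went the other way. It lies on chromosome 17 from 34856374 to 34862518, 85 bases from C2. The authors' deposited tables gave Cfb -2.00 ± 0.29 (adjusted p = 3.57e-11) in 3-month males, -0.60 ± 0.09 (adjusted p = 1.77e-09) in 3-week females and -0.84 ± 0.15 (adjusted p = 5.20e-07) in 3-week males. Its level was 3.99-fold, 1.51-fold and 1.79-fold lower in the knockout. Only 1.87%, 6.77% and 3.41% of the tested genes had a lower fold change than Cfb in those tables. C3, whose fragment C3b is one part of the alternative C3-cutting enzyme, and Cfb, which supplies the other, were thus apart by 6.58 log2 units at 3 months, 2.39 in females and 3.32 in 3-week males. The annotated gene Gm20547 overlaps both Cfb and C2, so reads of it could be counted for either.

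The genes around C2, Cfb and C4b were called lower about as often as all genes. Of 9 neighbours in the list, 3 rose and 2 fell among 8 tested at 3 months, where 29.8% of all tested genes rose and 27.8% fell. In 3-week females 1 fell among 9, where 10.4% of all tested genes fell. In 3-week males 0 of 7 were called in the authors' DESeq2 table (0 also at an unadjusted p under 0.05). Among all tested genes 17.3% were called in 3-week males, and 8.52% were lower. At 3 months the authors' deposited table gave -0.49 ± 0.14 for Skiv2l, a helicase of RNA decay, and -0.29 ± 0.11 for Dxo, an RNA decapping enzyme, and both were above 0 with total-count scaling (0.01 and 0.20). Zbtb12 stood at 0.58 ± 0.19 and Tnxb, a matrix tenascin, at 0.54 ± 0.13 in the same authors' deposited table, and Tnxb at -0.80 ± 0.23 in that of 3-week females (adjusted p from 0.000135 to 0.00619 for these 3).

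Cfi, factor I, cuts C3b and C4b and so stops the cascade. It lies on chromosome 3 from 129835884 to 129875332. The authors' deposited table of 3-week males gave 1.10 ± 0.19 (adjusted p = 1.12e-07), which is 2.15-fold higher in the knockout. In 3-week females the authors' deposited table gave 0.56 ± 0.29 (adjusted p = 0.170). At 3 months the authors' deposited table gave 1.51 ± 0.44 without a p-value, and with outliers kept the adjusted p was 0.00140. C3ar1, the receptor for C3a on macrophages and other leukocytes, lies on chromosome 6 from 122847138 to 122856161. It rose in all 3 of the authors' deposited tables, by 3.88 ± 0.26 (adjusted p = 3.37e-48), 1.14 ± 0.19 (adjusted p = 3.83e-08) and 1.73 ± 0.22 (adjusted p = 8.65e-13) in 3-month males, 3-week females and 3-week males.

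Levels of different genes were set side by side as the mean normalised count per kilobase of exon and per 1000000 counts, over both genotypes. On this pooled scale Cfb had the highest level in each of the authors' deposited tables, at 165 at 3 months, 70.8 in 3-week females and 73.6 in 3-week males. C1qb had 82.8, 35.6 and 39.6, C1qa 71.3, 31.6 and 36.9, and C3 63.4, 26.5 and 45.0 in the same order, so that C3 lay above the C1q chains in 3-week males and below C1qa and C1qb in the others. C1qc had 36.9, 19.0 and 21.3, and C2 had 24.3, 21.2 and 19.2. Cfi with 5.46, 3.75 and 4.99, C4b with 4.47, 0.554 and 0.796, and C3ar1 with 2.25, 1.65 and 1.61 were the least abundant. The lowest and highest of these levels are far apart, but whether neighbours in the order differ beyond their spread was not tested without values per library. Because the fold changes differ so much, the order within a genotype is not the pooled one. Splitting each mean by its fold change and the libraries found from the steps gave, at 3 months, levels of 58.9 in knockout and 235 in control kidneys for Cfb. The same split gave 190 in knockout and 11.2 in control kidneys for C1qb, and 149 in knockout and 6.24 in control kidneys for C3. Cfb thus ranked first among the members in control kidneys of all 3 comparisons. In knockout kidneys it ranked 5 at 3 months, 1 in 3-week females and 3 in 3-week males, with C1qb first at 3 months and C3 first in 3-week males. These split levels rest on the reading of the ratio and carry no error of their own.

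Promoter sequences are shown for members that rose together, C1qb, C1qc and C3ar1, and for C3, the member with the largest fold change. RefSeq windows on GRCm38.p6 of 300 bases, from 250 before to 50 after the transcript start, were given for these 4 of 9 members and not for C1qa, C4b, C2, Cfb and Cfi. Each is printed 5′ to 3′ on the gene's strand, which is minus for all 4, and capitals mark matches to the motifs searched on both strands.
C1qb, chr4:136886151-136886450: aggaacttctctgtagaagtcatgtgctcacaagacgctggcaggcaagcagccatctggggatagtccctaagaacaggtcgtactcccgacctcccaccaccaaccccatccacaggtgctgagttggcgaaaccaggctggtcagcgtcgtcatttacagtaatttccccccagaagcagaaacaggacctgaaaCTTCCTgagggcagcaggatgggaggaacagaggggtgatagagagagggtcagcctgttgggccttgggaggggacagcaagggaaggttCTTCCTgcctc
C1qc, chr4:136892865-136893164: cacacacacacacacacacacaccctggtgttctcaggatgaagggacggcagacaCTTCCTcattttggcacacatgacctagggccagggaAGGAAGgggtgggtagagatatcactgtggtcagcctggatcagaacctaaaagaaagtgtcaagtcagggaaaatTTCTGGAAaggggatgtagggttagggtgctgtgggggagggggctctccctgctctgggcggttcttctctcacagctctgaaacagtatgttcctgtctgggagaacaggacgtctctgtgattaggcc
C3ar1, chr6:122856108-122856407: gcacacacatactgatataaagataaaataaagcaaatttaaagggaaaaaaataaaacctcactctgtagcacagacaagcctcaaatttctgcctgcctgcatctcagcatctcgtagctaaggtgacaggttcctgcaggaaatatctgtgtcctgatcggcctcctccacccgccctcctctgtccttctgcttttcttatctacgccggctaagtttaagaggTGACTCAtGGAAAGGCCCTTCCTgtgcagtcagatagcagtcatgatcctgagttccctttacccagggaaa
C3, chr17:57228087-57228386: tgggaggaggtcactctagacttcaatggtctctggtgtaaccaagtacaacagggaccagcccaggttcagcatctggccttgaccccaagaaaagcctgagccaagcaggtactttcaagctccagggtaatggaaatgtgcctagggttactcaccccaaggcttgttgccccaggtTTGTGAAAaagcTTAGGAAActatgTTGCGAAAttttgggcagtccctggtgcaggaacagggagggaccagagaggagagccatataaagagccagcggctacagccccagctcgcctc

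The motifs were chosen with these sequences in view. The core of the ERR response element, AAGGTCA, was in none of the 4 windows and in 4.72% of 32851 promoter windows of that length. The ETS core AGGAAG, which PU.1 of macrophages binds, was in 3 of 4, with 2 matches each in C1qb and C1qc and 1 in C3ar1, and in 35.4% of all windows. The C/EBP pattern TTNNGNAA had 3 matches in C3, all between 70 and 38 bases before the start, and 1 in C1qc, and was in 40.7% of all windows. C3ar1 held a match to the AP-1 site TGANTCA, found in 7.81% of all windows, and one to the NF-kB pattern (GGG, then NN, then TTTCC), found in 1.63%, which shares 1 base with the ETS core. The interferon-stimulated response element (GAAA, then NN, then GAAA) was in none of the 4 and in 3.44% of all windows. A match is a description of letters, and a missing one says only that they are not in this window.

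**Figure D2:**
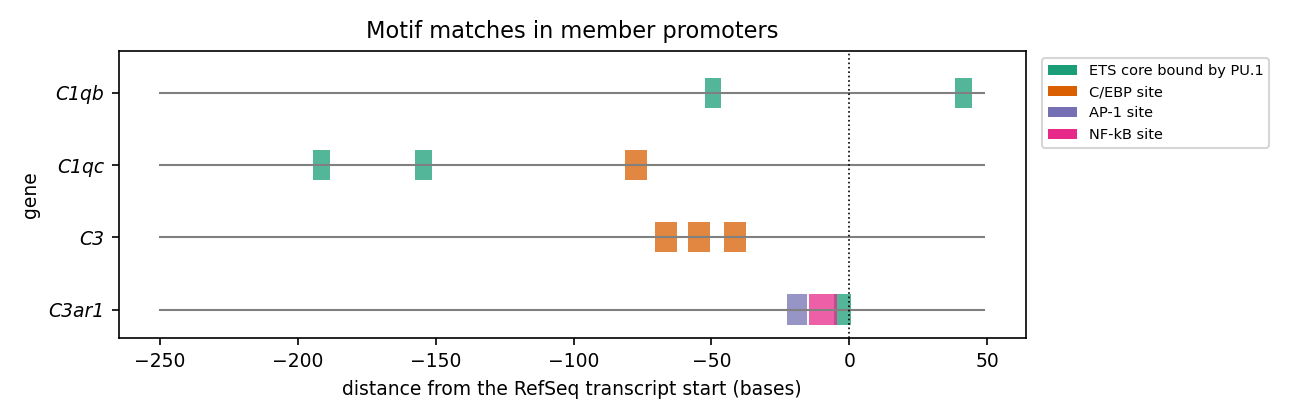
Motif matches in the 300-base promoter windows of C1qb, C1qc, C3 and C3ar1, by distance in bases from the RefSeq transcript start (dotted line). The 3 C/EBP matches of C3 lie between 70 and 38 bases before the start, and the AP-1, NF-kB and ETS matches of C3ar1 lie next to each other at its start.

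Most tested genes of the rest of the cascade rose at 3 months, and most were not called at 3 weeks. Of 53 further complement genes 51 are in the tables, some under older symbols. Among those tested, 22 of 30 rose and 5 fell at 3 months, 8 of 32 rose and 4 fell in 3-week females, and 12 of 37 rose and 3 fell in 3-week males. Of all tested genes 29.8%, 8.29% and 8.81% rose and 27.8%, 10.4% and 8.52% fell in the same comparisons. Their median log2 fold change in the authors' deposited tables was 1.50, 0.06 and 0.45 in that order. The rest were under the filter on low means or had the status Outlier.

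Proteases of the classical pathway were called at 3 months, where 57.5% of all tested genes were. The authors' deposited table gave 1.72 ± 0.18 for C1ra (adjusted p = 2.77e-20) and 2.29 ± 0.28 for C1s1 (adjusted p = 3.98e-15), the proteases that C1q activates. At 3 weeks 0 of 3 tested genes of this list in females and 0 of 4 in males were called in the authors' DESeq2 tables (0 and 1 at an unadjusted p under 0.05). Among all tested genes 18.7% and 17.3% were called there. In the lectin pathway, which starts from sugars on microbes, 2 of 5 tested genes were higher and 2 lower at 3 months. Among all tested genes 29.8% were higher and 27.8% lower there. Masp1, one of its proteases, rose in all 3 of the authors' deposited tables, by 3.33 ± 0.46, 0.82 ± 0.22 and 0.97 ± 0.26 in 3-month males, 3-week females and 3-week males (adjusted p = 2.98e-12, 0.00170 and 0.00171). Colec12, a scavenger receptor, was at 1.97 ± 0.16 at 3 months, and Mbl1, a mannose-binding lectin, and Masp2 had -2.26 ± 0.39 and -3.34 ± 0.52, as listed by the authors' deposited table. Mbl1 and Masp2 had mean counts of 45.4 and 21.7 there.

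In the alternative pathway Cfp, properdin, which stabilises the C3-cutting enzyme, rose by 2.86 ± 0.28 at 3 months (adjusted p = 2.64e-23) and by 0.64 ± 0.24 in 3-week males (adjusted p = 0.0482) in the authors' deposited tables. In 3-week females the authors' deposited table gave 0.32 ± 0.20 (adjusted p = 0.282). Cfd, factor D, which cuts factor B and is known as adipsin from fat cells, was singled out after its values were seen. It stood at 5.57 ± 0.66, -0.08 ± 0.25 and 0.10 ± 0.35 in the authors' deposited tables of 3-month males, 3-week females and 3-week males, each time with the status Outlier.

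Genes of the terminal pathway, which forms the membrane pore, were called in both directions. At 3 months 2 of 4 tested were higher and 2 lower, beside 29.8% and 27.8% of all tested genes. C7 rose in all 3 of the authors' deposited tables, by 1.51 ± 0.31, 1.07 ± 0.31 and 1.39 ± 0.28, and C6 rose by 2.28 ± 0.40 at 3 months. C8a fell in all 3 of the authors' deposited tables, with values of -3.67 ± 0.40, -2.01 ± 0.40 and -2.14 ± 0.42, and C8g fell at 3 months with -2.62 ± 0.17 (adjusted p from 1.32e-51 to 0.00517 over these calls). C8a had mean counts of 246, 28.2 and 26.3 in 3-month males, 3-week females and 3-week males.

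Most called regulators that restrain the cascade were higher at 3 months, and at 3 weeks most called ones of the fluid phase were. In the fluid phase, 4 of 4 tested genes rose at 3 months, 3 of 6 rose and 1 fell in 3-week females, and 4 of 9 rose and 1 fell in 3-week males. Among all tested genes 29.8%, 8.29% and 8.81% rose and 27.8%, 10.4% and 8.52% fell. At 3 months 2 of the 10 genes present had the status Outlier and 4 were under the filter. The gene that fell was Cpn1, at -0.48 ± 0.16 (adjusted p = 0.0211) in 3-week females and -0.51 ± 0.15 (adjusted p = 0.00748) in 3-week males in the authors' deposited tables. C4bp, which takes apart the classical enzyme, was at 4.03 ± 0.63, 2.22 ± 0.33 and 2.09 ± 0.33 in the authors' deposited tables. Serping1, the C1 inhibitor, was at 2.99 ± 0.24 at 3 months and 0.85 ± 0.24 in 3-week males in the authors' deposited tables. In 3-week females it stood at 0.38 ± 0.27 with the status Outlier. Clu, clusterin, rose by 1.48 ± 0.21 at 3 months in the authors' deposited table. At 3 weeks Clu was at 0.36 ± 0.23 in males (adjusted p = 0.344) and at 0.03 ± 0.29 with the status Outlier in females. On cell membranes, 5 of 6 tested genes rose and 0 fell at 3 months. In 3-week females 0 of 6 rose and 1 fell, and in 3-week males 1 of 7 rose and 1 fell. Susd4 rose by 2.06 ± 0.20 at 3 months and 1.11 ± 0.26 in 3-week males in the authors' deposited tables. In 3-week females it stood at 0.75 ± 0.34 with the status Outlier. Cd59a, the main inhibitor of the membrane pore, was higher at 3 months and lower at 3 weeks. The authors' deposited tables gave 0.32 ± 0.10 (adjusted p = 0.00395), -0.79 ± 0.16 (adjusted p = 1.19e-05) and -0.58 ± 0.16 (adjusted p = 0.00322) in 3-month males, 3-week females and 3-week males. Cd55, which breaks up the C3-cutting enzyme, and Cd59b rose at 3 months by 0.98 ± 0.35 and 0.87 ± 0.35, per the authors' deposited table.

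Among the other receptors, some rose in every comparison and others passed the test in fewer. The share of all tested genes that rose was 29.8%, 8.29% and 8.81% in 3-month males, 3-week females and 3-week males. The share that fell was 27.8%, 10.4% and 8.52% in the same order. Of the other receptor genes 6 of 7 tested rose and 1 fell at 3 months (C1qbp, at -0.39 ± 0.09, which was above 0 with total-count scaling), 3 of 8 rose and 1 fell in 3-week females (Cd93, at -0.37 ± 0.13), and 4 of 8 rose in 3-week males. C5ar1, the receptor for C5a on myeloid cells, was at 4.56 ± 0.33, 1.04 ± 0.24 and 1.30 ± 0.29 in the authors' deposited tables. Itgam and Itgax, the alpha chains of complement receptors for cleaved C3b, rose in all 3 of the authors' deposited tables, Itgam by 3.63 ± 0.30, 1.04 ± 0.28 and 1.51 ± 0.26 and Itgax by 2.27 ± 0.38, 0.97 ± 0.37 and 1.39 ± 0.32. Itgb2, their shared beta chain, was at 2.88 ± 0.19, 0.40 ± 0.28 and 0.72 ± 0.27 in the authors' deposited tables, with an adjusted p of 0.352 in 3-week females.

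**Figure D3:**
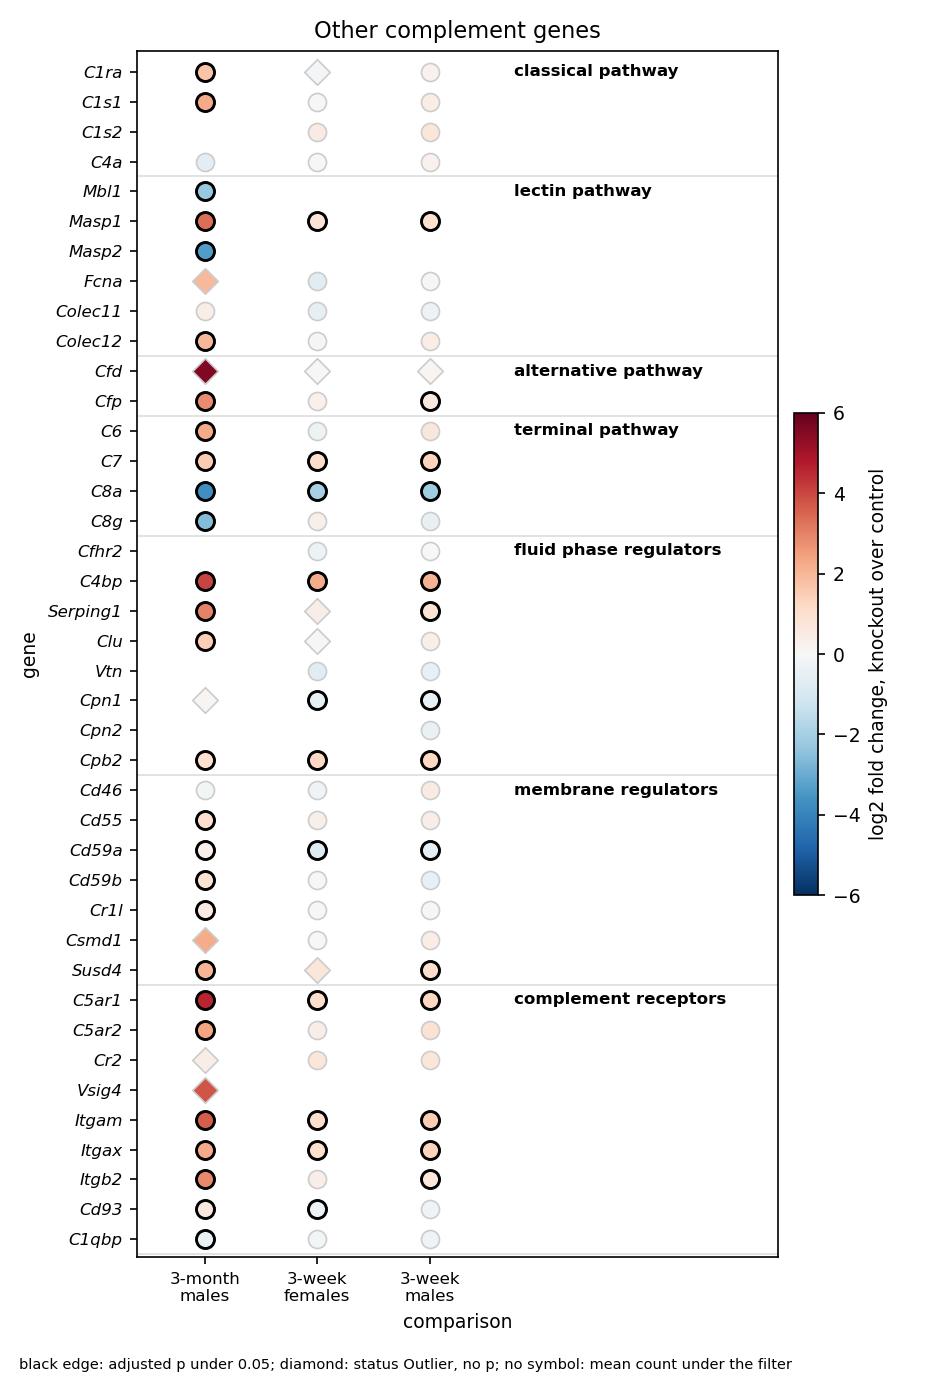
Log2 fold change, knockout over control, of other complement genes (rows, grouped by role) in 3-month males, 3-week females and 3-week males, from the authors' deposited tables. Colour gives the fold change from blue (lower) to red (higher), a black edge an adjusted p under 0.05, a diamond the status Outlier; C8a is blue and C7, C4bp and C5ar1 red in all 3 columns.

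The fold changes of the tested members differed with age in males, and no difference between the sexes was detected at this replication. The difference between 2 tables was tested as the difference of the fold changes over the root of their summed squared SEs, as a 2-sided normal test with Benjamini-Hochberg adjustment over all genes tested in both. Between 3-month and 3-week males all 6 testable members passed, 4 with a higher and 2 with a lower fold change at 3 months. Of all 12355 genes 27.7% passed, 16.8% with a higher and 10.9% with a lower fold change. The difference was 2.62 ± 0.34 for C1qb (adjusted p = 3.16e-12), 2.56 ± 0.35 for C1qa, 2.48 ± 0.34 for C1qc and 2.15 ± 0.34 for C3ar1, and -1.16 ± 0.32 for Cfb (adjusted p = 0.00272) and -0.63 ± 0.18 for C2 (adjusted p = 0.00309). With total-count scaling that of C2 was -0.32 (adjusted p = 0.161). With outliers kept, C3 differed by 2.10 ± 0.32 (adjusted p = 1.80e-09) and C4b by 1.52 ± 0.51 (adjusted p = 0.0138), and Cfi by 0.41 ± 0.48 (adjusted p = 0.548). Cd59a differed by 0.90 ± 0.19 (adjusted p = 3.50e-05). The largest SE was 1.10 at 3 months, and 0.42 and 0.44 in females and males at 3 weeks, a ceiling that arises where fold changes are moderated towards 0, more strongly at 3 weeks. With the moderation undone under a normal prior, C1qb differed by 2.51, C3ar1 by 2.08 and Cfb by -1.17.

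Between 3-week females and 3-week males 0 of 7 testable members passed, and 0.0% of 13737 genes. The unadjusted p was under 0.05 for 237 genes, 1.73% of those tested, one of them the member C3ar1, which differed by -0.60 ± 0.29. With outliers kept 2 of 14952 genes passed. C1qa, C1qb and C1qc differed by -0.53 ± 0.39, -0.68 ± 0.36 and -0.54 ± 0.34, Cfi by -0.54 ± 0.34, C2 by 0.22 ± 0.20 and Cfb by 0.24 ± 0.17, female minus male. The SEs of the C1q differences are as large as 0.39, so a moderate difference between the sexes could have gone undetected.

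**Figure D4:**
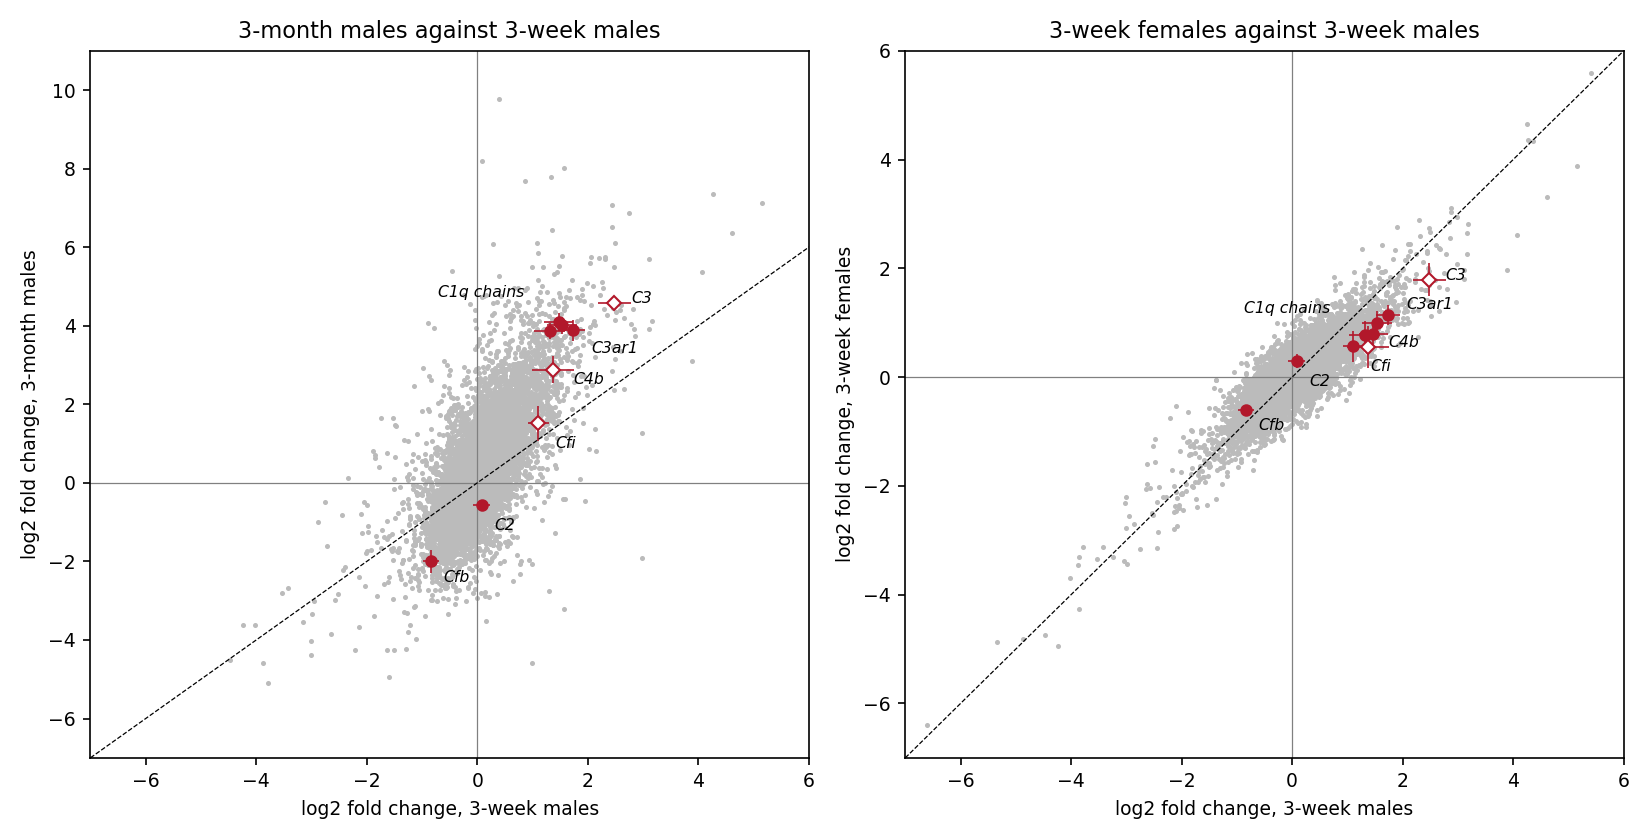
Log2 fold change, knockout over control, in 3-month males (left, vertical axis) and 3-week females (right, vertical axis) against that in 3-week males (horizontal axis), from the authors' deposited tables. Grey points are genes tested in both, red ones the members with SE bars (diamonds where a table gives the status Outlier), and the dashed line marks equal values; the C1q chains and C3ar1 lie far above the line on the left.

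By Euclidean distance over the 3 log2 fold changes, the genes nearest to the mean of the C1q chains among 9426 well-measured genes were Fcgr3, Col12a1, Lpcat2, Vcam1 and Myof. Fcgr3, an antibody receptor of macrophages, was at 3.91, 0.89 and 1.43 in the authors' deposited tables of 3-month males, 3-week females and 3-week males, a distance of 0.085 from the C1q mean of 3.99, 0.85 and 1.44. The nearest to C3 were Kif1a at a distance of 0.25, Ms4a7 at 0.62, Ms4a6d, Smoc2 and Cd44. A pattern over 3 comparisons is a coarse measure of likeness.

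Markers of other cells moved beside the members, and their part in these results was not tested. The share of all tested genes that rose was 29.8%, 8.29% and 8.81% in 3-month males, 3-week females and 3-week males. The share that fell was 27.8%, 10.4% and 8.52% in the same order. Macrophage and monocyte markers rose in 14 of 14, 14 of 16 and 14 of 15 tested cases in 3-month males, 3-week females and 3-week males, with medians of 3.57, 1.10 and 1.49 in the authors' deposited tables, beside C1q means of 3.99, 0.85 and 1.44. Their summed mean counts were 690, 319 and 354 per 1000000 counts, and none of the 16 is listed at 0. Lyz2 was at 5.77 ± 0.20, 1.21 ± 0.22 and 1.53 ± 0.26, and Mpeg1 at 3.39 ± 0.15, 1.17 ± 0.19 and 1.49 ± 0.19, in the authors' deposited tables. Ctss was at 4.11 ± 0.25, 1.04 ± 0.27 and 1.80 ± 0.21 in the authors' deposited tables. Csf1r was not called at 3 weeks, with -0.02 ± 0.26 (adjusted p = 0.978) in females and 0.40 ± 0.21 (adjusted p = 0.192) in males. Cd163 was not called in 3-week females, at 0.68 ± 0.35 (adjusted p = 0.178). Neutrophil markers rose in 4 of 4 tested cases at 3 months and in 0 of 4 in either sex at 3 weeks in the authors' DESeq2 tables (1 in females and 2 in males at an unadjusted p under 0.05). They sum to 4.42, 3.74 and 4.54 per 1000000 counts, and Ngp is listed at 0 at 3 months and Mpo at 0 in females. Csf3r was at 1.94 ± 0.43 at 3 months in the authors' deposited table.

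Beside Cfd, which fat cells are known to make, fat cell markers rose in 4 of 4 tested cases at 3 months. The share of all tested genes that rose was 29.8% at 3 months, 8.29% in 3-week females and 8.81% in 3-week males. The share that fell was 27.8%, 10.4% and 8.52% in the same order. At 3 months Retn was at 6.80 ± 0.42 and Car3 at 3.19 ± 0.17 in the authors' deposited table. The fat cell list summed to 369 per 1000000 counts at 3 months, beside 103 and 162 in 3-week females and males. At 3 weeks 0 of 2 tested in females and 0 of 1 in males were called in the authors' DESeq2 tables (1 and 0 at an unadjusted p under 0.05), and 5 and 7 of the 8 had the status Outlier. Fibroblast markers rose in 4 of 4 tested cases at 3 months, in 5 of 8 with 1 lower in 3-week females, and in 2 of 3 in 3-week males. The status Outlier was given to 5, 1 and 6 of the 9 in that order. Postn was at 4.50 ± 0.42 and 2.01 ± 0.10 in 3-month males and 3-week females in the authors' deposited tables. Pdgfrb was the lower one, at -0.61 ± 0.18 (adjusted p = 0.00524) in 3-week females, and stood at -0.29 ± 0.27 with the status Outlier in 3-week males. Tubular injury markers rose in 6 of 6, 8 of 10 and 6 of 7 tested cases, with Lcn2 at 7.73 ± 0.25 at 3 months in the authors' deposited table. Liver cell markers fell in 2 of 2 tested cases at 3 months, fell in 1 of 5 in 3-week females and rose in 2 of 4 in 3-week males. At 3 months 4 of the 7 had the status Outlier. The list summed to 410, 417 and 315 per 1000000 counts in that order. Alb had mean counts of 164, 40.1 and 66.9, Ttr had 12515 and 12806 in 3-week females and males, and Cfb had 8742, 6777 and 9877. A part of liver RNA in these values was not tested.

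**Figure D5:**
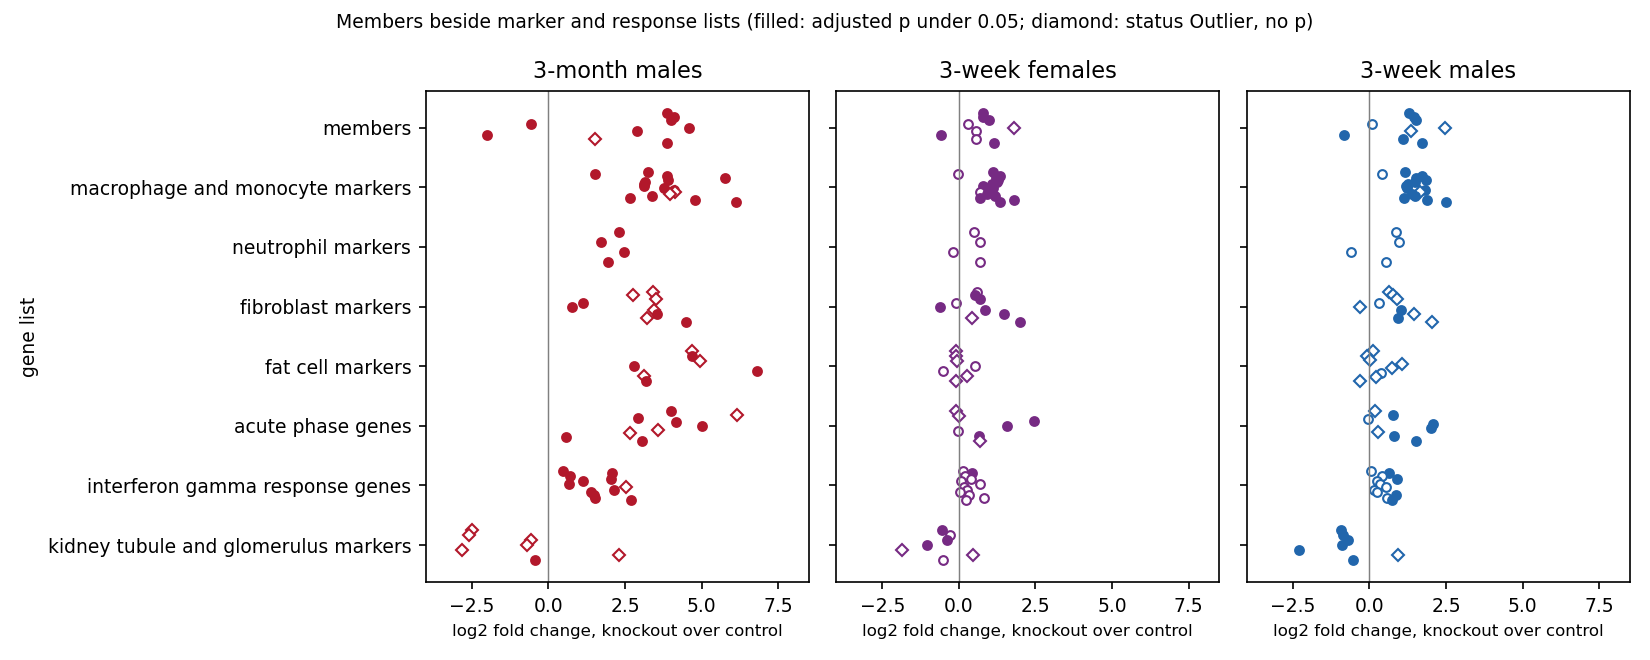
Log2 fold change, knockout over control, of the members and of 7 marker or response lists (rows, one symbol per gene) in 3-month males, 3-week females and 3-week males, from the authors' deposited tables. Filled symbols have an adjusted p under 0.05 and diamonds the status Outlier; all macrophage markers but Csf1r in 3-week females lie right of 0, as most members do, and fat cell markers do so at 3 months.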

How the data were processed

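Polyadenylated RNA of kidneys was sequenced after stranded library preparation (TruSeq Stranded mRNA), per the labels' protocols. STAR, HOMER, DESeq2 and the build mm10 are named in the submitters' processing notes, and their versions are not given there. The deposited tables hold 23420 rows each, with the columns of a DESeq2 result per the file headers: the authors' mean of normalised counts (a signal), their log2 fold change and its SE, a p-value with its adjusted form, and a status. Recomputing a 2-sided normal p from fold change and SE gave the authors' p-values to within 1.38e-07. No source used here gives the rule of the status Outlier. Symbols turned into dates (27 rows) were left out. Listed genes missing under their current symbol were matched by RefSeq synonyms (5 genes, among them C1s1 as C1s and Adgre1 as Emr1).

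A gene counted as called at an adjusted p under 0.05 in the authors' deposited table. No count model was refitted, since only the tables' summary values were used here. Differences between tables were tested as described in the report, and the test was checked on simulated fold changes. Their noise was drawn from the same SEs that the test used. The check therefore covers the computation, and not whether those SEs hold in these data. The labels number libraries 1 to 15 without repeats, so nothing pairs them, and they name separate littermates. The p-values reflect spread between libraries only, and which libraries each table holds is unknown. The members, gene lists and tests were chosen with earlier results of these data known. Genes named beside the members were up to 4 called ones per list with the smallest adjusted p, and the 5 nearest in pattern at mean counts of at least 100. A few others, such as Cfd, Cpn1, C1qbp and Cd93, are named in addition. One gene that this rule took enters the counts and is not reported here. Exon lengths and positions are from GENCODE M21, promoters from RefSeq. Alternatives were thresholds, filters, scaling and the undoing of moderation. The total-count scaling is an offset for each table, estimated from pooled means, fold changes and the libraries found from the steps. Python 3.11.15, pandas 2.3.3, numpy 2.4.6, scipy 1.17.1 and matplotlib 3.10.9 were used.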

Additional observations from a re-analysis of the deposited data

Results flagged for a closer look

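The fold changes of 6 members differed between males at 3 months and at 3 weeks by the normal test of the difference (adjusted p under 0.05 over 12355 genes, of which 27.7% passed). The difference, 3 months minus 3 weeks, was 2.56 for C1qa, 2.62 for C1qb, 2.48 for C1qc and 2.15 for C3ar1, and -0.63 for C2 and -1.16 for Cfb. Cd59a, the pore inhibitor, differed by 0.90 and had calls of opposite sign at the 2 ages. The 2 ages were normalised, and possibly moderated, separately. Which kidneys entered each table is not known.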

How the results depend on the processing

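Of 375 recomputed values of members, counts and differences, none changed direction. Median centring and a threshold of 0.1 changed no call of the members. A threshold of 0.01 ended the call of C1qa in 3-week females (0.78) and left 2 of 4 other complement genes lower there. Requiring an absolute log2 fold change of at least 1 ended the calls of C1qa, C1qb and C1qc in females (0.78, 0.80 and 0.99), of Cfb in females and 3-week males (-0.60 and -0.84) and of C2 at 3 months (-0.56). It left 1 member lower at 3 months, 1 higher and 0 lower in females and 0 lower in 3-week males. Of other complement genes it left 5 higher and 1 lower in females and 7 higher and 1 lower in 3-week males. Total-count scaling, which adds 0.49, 0.15 and 0.18 to log2 fold changes in 3-month males, females and 3-week males, put C2 at -0.061 at 3 months, leaving 6 members higher and 1 lower, and at 0.44 in females, where it passed (adjusted p = 0.00579). It put Cfi at 2.01 at 3 months, the age difference of C2 at -0.32, and left 9 other genes higher and 2 lower in females and 16 higher and 1 lower in 3-week males. Without any filter, and also with outliers kept, 4 values without a p-value passed: C3 at 1.79 in females and 2.48 in 3-week males, C4b at 1.37 in 3-week males and Cfi at 1.51 at 3 months. Undoing the moderation put these values of C3 at 2.11 and 2.85 and of C4b at 1.81. Keeping outliers and undoing moderation were chosen after seeing the data. With outliers kept, 2 of 14952 genes differed between the sexes. Leaving out replicates was not run, since no values per library were used here. No paired analysis was possible because the labels give no number to more than 1 library.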

Other observations

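Genes known to respond to the inflammatory signals that also drive complement genes were listed beside the members. Acute phase genes rose in 6 of 6 tested cases at 3 months, 3 of 4 in 3-week females and 5 of 6 in 3-week males. Beside them, 29.8%, 8.29% and 8.81% of all tested genes rose in the same order. Cp, ceruloplasmin, was at 3.07 ± 0.14 and 1.51 ± 0.20 in 3-month and 3-week males in the authors' deposited tables. Il1rn, the interleukin 1 receptor antagonist, was at 5.01 ± 0.47, 2.45 ± 0.34 and 2.09 ± 0.36, and Lbp, which binds lipopolysaccharide, at 2.92 ± 0.31 at 3 months, in the authors' deposited tables. Socs3, a feedback inhibitor of cytokine signalling, was at 1.56 ± 0.26 and 2.00 ± 0.20 in 3-week females and males in the authors' deposited tables.

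Interferon gamma response genes, a class to which Cfb and C4b are known to belong, rose in 11 of 11 tested cases at 3 months, 1 of 12 in 3-week females and 4 of 12 in 3-week males. The share of all tested genes that rose was 29.8%, 8.29% and 8.81% in that order. The count in 3-week females is thus near the share of all genes. Cd74, the invariant chain of antigen presentation, was at 2.71 ± 0.14 and Irf1 at 2.07 ± 0.21 at 3 months in the authors' deposited table. Gbp2 and Psmb9 were at 2.04 ± 0.38 and 2.13 ± 0.41 in the same authors' deposited table.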
